A study of Mus musculus with 88 samples.

Results

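Aged and young oocytes with the non-surrounded nucleolus (NSN) configuration were compared by the RNA of single cells. Of 88 sequenced fully grown germinal vesicle (GV) oocytes, 67 are predicted to be NSN, 30 of 42 young oocytes and 37 of 46 aged oocytes. The other oocytes are predicted to have a surrounded nucleolus (SN; 12 young and 8 aged oocytes), or have no prediction (1 aged oocyte). The study placed all 8 aged SN oocytes in an aged group that it calls young-like, by clustering on genes that differed with age. Ratios in SN oocytes therefore do not separate configuration from this resemblance to young oocytes. The young oocytes came from C57BL/6Babr virgin females of 12 weeks and the aged oocytes from C57BL/6Babr virgin females of 44 to 54 weeks, with no hormone treatment, deletion or transgene named for either age. The study used 3 young and 7 aged mice, and polyadenylated RNA of each oocyte was captured on beads and amplified as Smart-seq2 cDNA beside a methylation library that is not analysed here. Because the labels tie no oocyte to a mouse, each age is 1 sample, differences between the ages have no replicate check, and no p-value is given. The NSN and SN calls are predictions of the study from the transcripts, not an observed chromatin state, and were not checked here by an independent measure. The study took genes known to be more abundant in SN oocytes, and the levels of these genes within NSN oocytes are not independent of the prediction. Their list was not used here.

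In NSN oocytes the chromatin is spread through the nucleus and transcription is still active, whereas in SN oocytes the chromatin forms a ring around the nucleolus and transcription has ceased. The maturing egg and the early embryo live on the RNA that the oocyte stored before this arrest. NSN oocytes are known for their low competence to support development after fertilisation.

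Gene levels are counts per 1000000 (CPM) of the counts summed over the oocytes of an age, and a ratio is the log2 of the aged over the young level. A range in brackets after a ratio is its 95% interval, which covers the counting of reads only, and a SD is over oocytes and describes their spread. Total counts were 2338311 to 4546294 in young NSN oocytes (median 3067942) and 976456 to 5448310 in aged NSN oocytes (median 2385433). The libraries carry no molecular identifiers, and the counts are of reads. The oocyte names form 3 runs of consecutive numbers in each age (young 1-7, 17-24 and 33-39, aged 9-16, 25-31 and 41-48), and each name ends in A or carries no suffix. What the runs and the suffix stand for is not given. They split the oocytes of each age into 6 sets of 3 to 8 oocytes, and the levels of these sets are given to show how even a difference was. The 9 oocyte markers with a feature summed to 13468 to 20639 CPM per young oocyte and 9022 to 21210 CPM per aged oocyte. Of the granulosa cell markers, 13 had a feature and summed to 34.7 to 141 CPM per young oocyte and 29.1 to 148 CPM per aged oocyte, with Foxl2 at 0 in all aged oocytes. Of 10 stroma and blood markers with a feature, 7 had counts in young and 6 in aged oocytes, and the list summed to 45.7 to 101 CPM and 40.3 to 93.0 CPM per oocyte, with the blood markers Hbb-bs and Hba-a1 and the stroma marker Col1a1 at 0 in both ages. The part of such transcripts in the results was not tested.

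Most genes had close levels in the 2 ages. Of 9324 features with at least 10 CPM in an age and at least 3 counts in both, 46 were at least 1.5-fold lower in aged oocytes (0.493%) and 3 at least 1.5-fold higher (0.0322%). At the lower threshold of 25%, where the level of one age exceeds that of the other by at least 25%, 246 features were lower in aged oocytes (2.64%) and 54 higher (0.579%). With TMM factors, which shift the ratios by 0.03, these counts were 187 lower and 98 higher. The 3 features past 1.5-fold on the higher side were Ust, Xlr4a and Gm48050. The median ratio was -0.0033, and the central 80 percent of features lay between -0.18 and 0.14. Among the 7606 protein-coding features, 1.87% were lower and 0.394% higher by the 25% threshold, and 0.302% and 0.0263% by 1.5-fold. Among the 1718 other features, which are non-coding or carry no gene name, these shares were 6.05% and 1.4%, and 1.34% and 0.0582%.

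The excess of lower features was uneven over the oocytes. In suffix A oocytes 59 features were at least 1.5-fold lower and 58 higher, and in the unsuffixed oocytes 113 were lower and 7 higher. Past 1.5-fold in both of these sets were 22 lower features (0.236%) and 1 higher feature (0.0107%), and past 25% in both were 108 lower (1.16%) and 16 higher (0.172%). The 3 aged runs lay below the 3 young runs for 669 features (7.18%) and above them for 520 (5.58%), and 45 of these also passed 1.5-fold (0.483%). All 6 aged sets lay below all 6 young sets for 41 features (0.44%) and above them for 27 (0.29%). Without the aged oocytes 41-48, 104 features were at least 1.5-fold lower and 3 higher. The overlap of features on opposite strands limits single genes, since it is not stated whether the libraries kept strand or whether counting used it. Reads of such a feature may come from either strand. Ust, Kdm1b, Sar1b, Dazl, Rab14, Mphosph6, Ppil3, Lsm3, Eny2, Eloc, Mid1, Foxp2, Gm45194, Lair1, Thegl, Malat1, Gm48050, 1110059G10Rik, Retreg3 and C130026I21Rik are among such features, with at least 1 feature on the other strand.

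**Figure D1:**
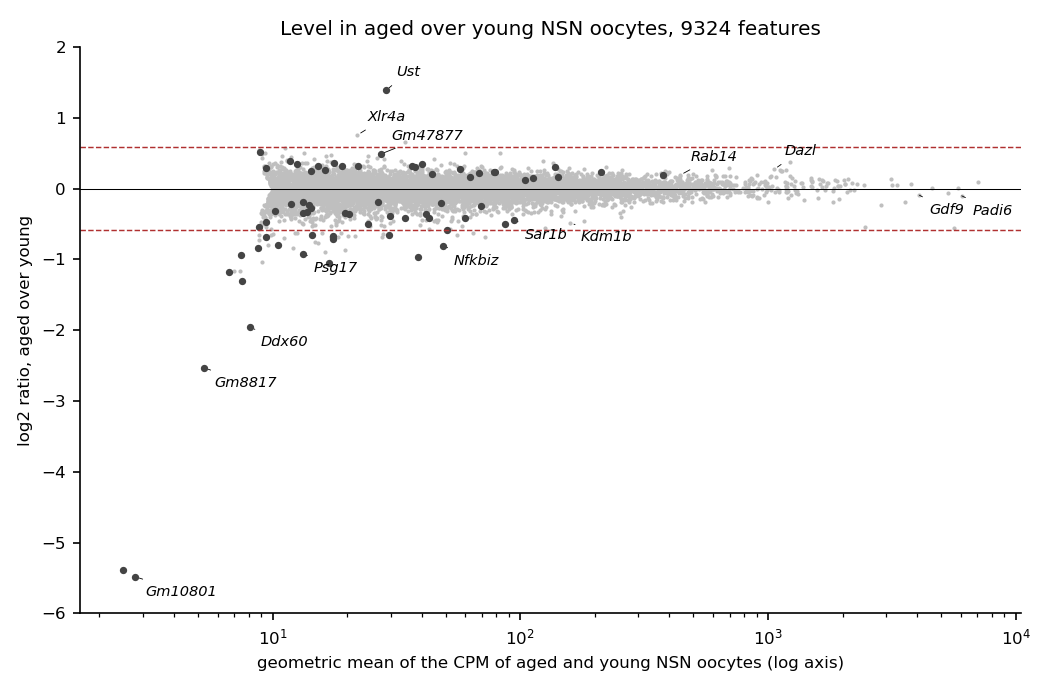
Log2 ratio of the level in aged over young NSN oocytes (vertical axis) against the geometric mean of the CPM of both ages (horizontal, log axis) for 9324 features; dashed lines mark 1.5-fold and dark points the features whose 6 aged and 6 young sets do not overlap. Only 3 features lie above the upper line and 46 below the lower line, with Ust at the top and Gm10801, Gm8817 and Ddx60 at the bottom.

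Ddx60 was the protein-coding gene of known role that was lowest in the aged oocytes relative to the young. It encodes an interferon-inducible helicase that acts with the cytoplasmic sensors of viral RNA, and its feature covers the gene at chr8:61928087-62037701 on the plus strand of GRCm38. The level in single young NSN oocytes was 3.67 CPM at the lowest, 15.8 at the median and 36.3 at the highest, and in aged NSN oocytes 0, 2.61 and 17.1 CPM. The ranges overlapped, but 36 of 37 aged oocytes lay below the young median and 23 below every young oocyte. Summed, the young oocytes had 16.1 CPM and the aged 4.13 CPM, a ratio of -1.96 (-2.13 to -1.80). The 6 young sets had 10.7 to 21.7 CPM and the 6 aged sets 3.3 to 5.61 CPM. In SN oocytes the levels were 9.58 CPM in young against 9.09 CPM in aged oocytes, a ratio of -0.08, and the difference between the configurations was not tested. Of the 18 RNA sensor and interferon genes with a feature, 11 passed the filter, and Ddx60 alone passed 25%. The median ratio of these 11 was -0.05. Tlr3, a receptor of double-stranded RNA, had 0.20 and Mavs, the adaptor of the cytoplasmic sensors, had -0.16.

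The Ddx60 feature began at the very base that RefSeq gives as the start of the gene, so its promoter window is shown. It is the window of GRCm38.p6 from 250 bases before to 50 bases from that start on (chr8:61927837-61928136, plus strand). Capitals mark 2 motifs searched on both strands, GAAANNGAAA, the core letters of an interferon-stimulated response element, and TATAAA.
Ddx60: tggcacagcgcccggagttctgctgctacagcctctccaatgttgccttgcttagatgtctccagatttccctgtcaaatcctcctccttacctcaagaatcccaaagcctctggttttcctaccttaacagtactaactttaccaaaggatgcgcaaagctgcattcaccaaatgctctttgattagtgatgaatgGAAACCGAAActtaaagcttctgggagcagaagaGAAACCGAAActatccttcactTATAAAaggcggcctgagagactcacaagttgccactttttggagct
GAAANNGAAA occurs at 53 and at 19 bases before the start, with no overlap between the matches. Of 32544 different RefSeq promoter windows of this length, 3.45% hold GAAANNGAAA and 0.221% hold it at 2 or more places. TATAAA, found at 3 bases after the start, occurs in 13.6% of the windows. These matches are letters in a window and were not tested as sites.

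Gm8817, a long non-coding RNA of the X chromosome (chrX:167061242-167070389, minus strand), was lower still. It was detected in 27 of 30 young and 18 of 37 aged NSN oocytes. Young oocytes had 0 CPM at the lowest, 10.7 at the median and 40.2 at the highest, and aged oocytes 0, 0 and 9.1 CPM. Each aged oocyte lay below the young median, and 18 young oocytes lay above every aged one. The summed levels were 12.8 and 2.21 CPM, a ratio of -2.53 (-2.75 to -2.32), and SN oocytes had 12.6 CPM in young against 1.31 CPM in aged. The feature began 19 bases before the RefSeq start, and its window (chrX:167070321-167070620, minus strand) is printed in the same way, with TATAAA at 53 bases before the start in capitals and no match to GAAANNGAAA.
Gm8817: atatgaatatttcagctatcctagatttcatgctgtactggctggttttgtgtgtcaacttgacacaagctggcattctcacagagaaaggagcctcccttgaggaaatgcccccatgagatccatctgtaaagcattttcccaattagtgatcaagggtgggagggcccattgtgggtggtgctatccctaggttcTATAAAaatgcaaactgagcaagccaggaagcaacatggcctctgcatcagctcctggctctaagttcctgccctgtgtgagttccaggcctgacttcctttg

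Of 49 features named by size or by overlap of the oocytes, 30 had a RefSeq window of the same symbol and strand and 12 began within 100 bases of its start. Ust was not among these 12, since its feature began 211185 bases past the RefSeq start, well inside the gene.

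Ust had the highest ratio of all 9324 features. It encodes uronyl 2-O-sulfotransferase, which places sulfate on chondroitin and dermatan sulfate chains. Its feature (chr10:8204753-8307640, minus strand) covers the 3' portion of the gene. Young NSN oocytes ranged from 1.23 to 74.1 CPM with a median of 12.6, and aged NSN oocytes from 3.73 to 104 CPM with a median of 45.5. The ranges overlapped widely, yet 32 of 37 aged oocytes lay above the young median. Summed over oocytes, the levels were 17.8 and 46.4 CPM, 2.62-fold higher in aged oocytes, with a ratio of 1.39 (1.31 to 1.47). The young sets had 10.4 to 21.2 CPM and the aged sets 39.3 to 78.5 CPM, so that the sets did not overlap although the single oocytes did. SN oocytes had 27 CPM in young against 43.9 CPM in aged. Of 11 sulfotransferase and heparan sulfate genes past the filter, Ust alone passed 25%, and the median ratio was 0.01. Chst7, which sulfates chondroitin, had 0.19 and Hs2st1, which sulfates heparan, had 0.15.

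**Figure D2:**
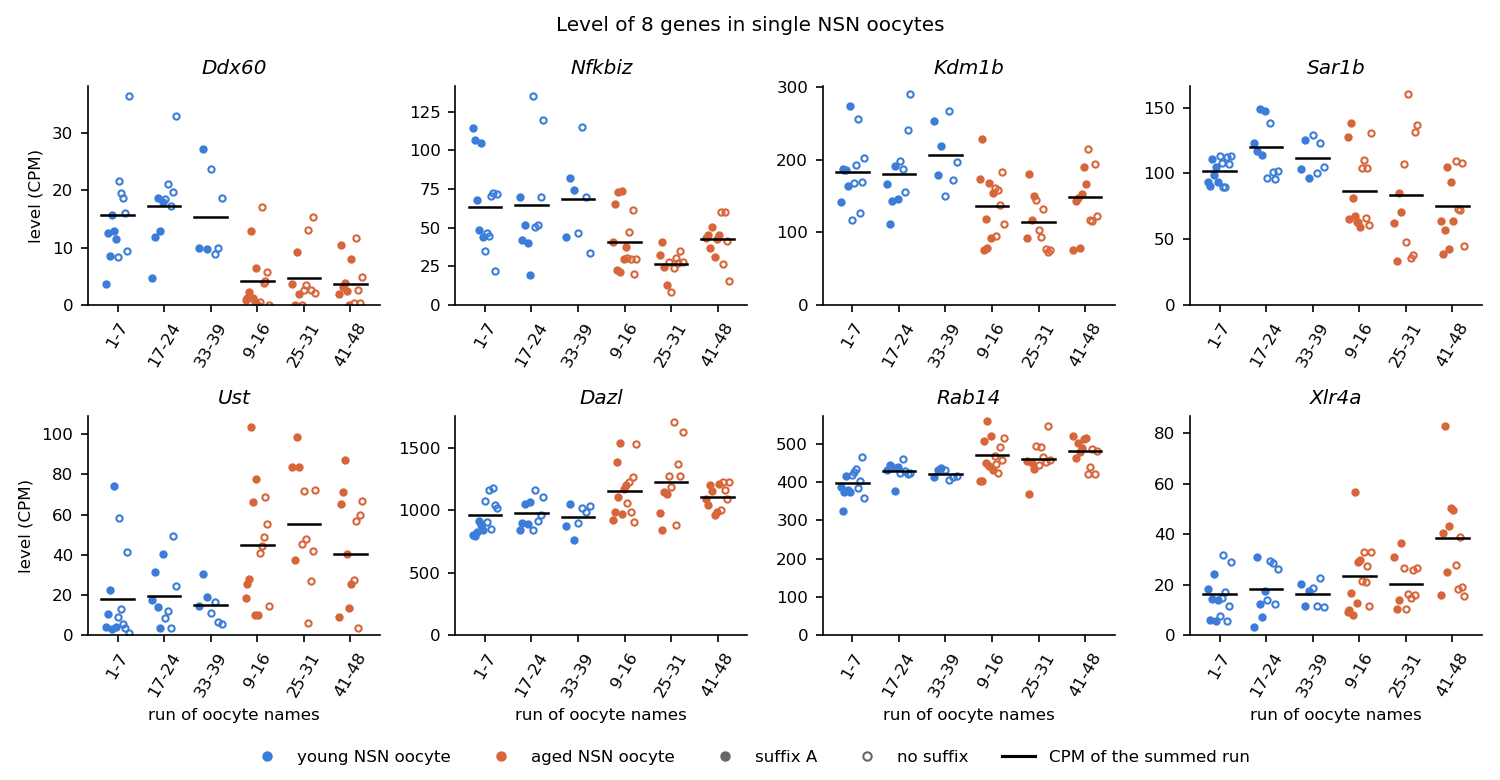
Level (CPM, vertical axis) of 8 genes in each of 30 young and 37 aged NSN oocytes, by run of oocyte names (horizontal axis); filled points have the suffix A, open points none, and lines give the CPM of the summed run. The aged runs lie below the young runs for Ddx60, Nfkbiz, Kdm1b and Sar1b and above them for Ust, Dazl, Rab14 and Xlr4a, while single oocytes of the ages overlap in all 8.

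Among the protein-coding genes at 100 CPM or more, Kdm1b was lowest in aged relative to young NSN oocytes. It encodes a histone H3 lysine 4 demethylase that the growing oocyte needs to place DNA methylation at imprinted genes. Young oocytes had 112 CPM at the lowest, 186 at the median and 291 at the highest, and aged oocytes 73.3, 132 and 229 CPM. Of the aged oocytes, 33 of 37 lay below the young median and 12 below every young oocyte. The summed levels were 188 ± 46.4 CPM (SD, n = 30 oocytes) and 135 ± 42.9 CPM (SD, n = 37 oocytes), a ratio of -0.48 (-0.51 to -0.45). The ratio was -0.39 in suffix A oocytes and -0.57 in the unsuffixed. In SN oocytes, where Kdm1b was more abundant in both ages, the levels were 337 CPM in young against 427 CPM in aged, a ratio of 0.34 (0.30 to 0.38). The sign was thus opposite in the 2 configurations, but all 8 aged SN oocytes are among those that the study calls young-like. The difference between the configurations was not tested. The Kdm1b feature (chr13:47043277-47084600, plus strand) overlaps at its start the gene Tpmt on the other strand.

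The other members of the DNA methylation list differed less. Of 14 past the filter, 5 were higher and 9 lower in aged oocytes, only Kdm1b past 25%, and the median ratio was -0.09. Dnmt1, the maintenance methyltransferase, had 1951 CPM in young against 1715 CPM in aged oocytes, a ratio of -0.19 (-0.20 to -0.18), against 0.07 in SN oocytes. Uhrf1, the partner that binds DNMT1 in the oocyte, had -0.14. Trim28, a corepressor that protects imprints, had -0.29, with -0.58 in suffix A oocytes and -0.01 in the unsuffixed. Dnmt3b, a de novo methyltransferase, had 0.24. Of 36 histone modifiers past the filter none passed 25%, 13 were higher and 23 lower, where 51.2% of all features were lower. The median was -0.05, with -0.11 in suffix A oocytes and 0.03 in the unsuffixed. The acetyltransferases Ep300 and Crebbp both had -0.22.

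Sar1b, Gtf3c1, Plxnb2 and Retreg3 were other abundant genes with lower levels in aged oocytes. Sar1b, the GTPase that starts the coat of vesicles leaving the endoplasmic reticulum, had 89.7 CPM at the lowest, 106 at the median and 149 at the highest in young oocytes, and 33.6, 70.9 and 160 CPM in aged oocytes. Here 23 of 37 aged oocytes lay below every young oocyte, while 1 lay above all of them. Summed over oocytes, the levels were 110.0 ± 16.1 and 81 ± 33.5 CPM (SD, n = 30 and 37 oocytes), a ratio of -0.44 (-0.48 to -0.40), with all 6 aged sets below the young sets. Gtf3c1, a subunit of the factor TFIIIC that recruits RNA polymerase III, had a ratio of -0.36, with 18 aged oocytes below every young oocyte. Plxnb2, a receptor of semaphorins, had -0.33. Retreg3, a receptor for autophagy of the endoplasmic reticulum, had -0.31, from a feature that also spans neighbouring genes. A feature over C130026I21Rik, a member of a family of near-identical copies, had -0.37 and is uncertain for that reason.

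Genes of lower level in aged oocytes below 100 CPM were of varied roles. Nfkbiz, a nuclear regulator of NF-kappaB target genes, had 19.4 CPM at the lowest, 59.7 at the median and 135 at the highest in young oocytes and 8.73, 32.4 and 73.8 CPM in aged oocytes. The summed levels were 64.7 and 37 CPM, a ratio of -0.81 (-0.87 to -0.75), and SN oocytes had 67.6 and 44.3 CPM. Psg17, a pregnancy-specific glycoprotein, had 18 CPM at the young median and 9.45 CPM at the aged median, with 19 aged oocytes below every young one and a ratio of -0.92. Mid1, a ubiquitin ligase of microtubules, had -0.90, and -1.21 in SN oocytes. Dhrs3, a reductase of retinal, had -0.76 and Foxp2, a forkhead transcription factor, had -0.70. The Foxp2 ratio was -0.20 in suffix A oocytes and -1.21 in the unsuffixed.

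Zfp869 and C130074G19Rik had ratios of -0.79 and -1.04 in NSN oocytes and of 0.24 and 0.32 in SN oocytes. The Zfp869 gene covers only a share of 0.36 of its feature. The NSN ratio of C130074G19Rik was -0.51 in suffix A oocytes and -1.31 in the unsuffixed. Gm45194 and AU018091 had -1.31 and -0.84, and were lower in aged SN oocytes as well, with -1.14 and -1.13. Malat1, a nuclear long non-coding RNA, had 11.1 CPM in young against 4.96 CPM in aged NSN oocytes, a ratio of -1.16, but -0.42 in suffix A oocytes. In SN oocytes Malat1 had 23.6 CPM in young against 29.1 CPM in aged.

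The smallest ratios of all, -5.48 for Gm10801 and -5.39 for Gm10800, varied in size with 1 young run. These predicted genes lie on opposite strands of 1 place on chromosome 2 (chr2:98662237-98667333 and chr2:98665036-98667338), where the 2 features overlap. The genes cover only a share of 0.36 and 0.33 of their features. The levels of Gm10801 and Gm10800 ran together, with 3.49 CPM of each in young oocyte 20A and 135 and 113 CPM in young oocyte 1. They may thus be 1 signal counted in both features, and whether the reads are transcripts of these genes was not tested. Young oocytes had 0 CPM of Gm10801 at the lowest, 4.1 at the median and 135 at the highest, and aged oocytes 0, 0 and 12.5 CPM. Counts were found in 29 of 30 young oocytes and 8 of 37 aged oocytes, and 7 young oocytes lay above every aged one. The young run 1-7 had 37.5 CPM and the runs 17-24 and 33-39 had 3.17 and 4.13 CPM. Without the run 1-7 the ratio of Gm10801 was -3.09, and in suffix A oocytes, where the summed young level was 3.5 CPM, it was -5.85.

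TCONS_00015071, an unnamed feature at chr11:41462785-41467517 on the plus strand with no gene name, was among the features whose single oocytes overlapped least. Young oocytes had 30.8 CPM at the lowest, 53.8 at the median and 69.8 at the highest, and aged oocytes 8.56, 27.2 and 57 CPM. Of 37 aged oocytes 36 lay below the young median and 26 below every young oocyte. Summed over oocytes, the levels were 53.7 and 27.6 CPM, a ratio of -0.96 (-1.03 to -0.89), and SN oocytes had 52.3 and 25.6 CPM.

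Apart from Ust, the features with higher levels in aged NSN oocytes had ratios of up to 0.75. Xlr4a, a member of the X-linked Xlr family of near-identical genes, had 16.9 CPM in young against 28.5 CPM in aged oocytes, a ratio of 0.75, but this was uneven. The aged runs had 23.7, 20.4 and 38.7 CPM, the ratio was 1.204 in suffix A oocytes and 0.29 in the unsuffixed, and it was 0.38 without the aged oocytes 41-48. Lrriq1 had 0.54, and 0.23 without that run. Lair1, an inhibitory receptor for collagen, had 0.51 and Setmar, a gene with a SET methyltransferase domain, had 0.47. For Setmar 34 of 37 aged oocytes lay above the young median of 13.2 CPM.

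Fxyd6, a regulator of the sodium pump, had 0.47, and 0.76 in SN oocytes. Cxcr3, a chemokine receptor, had 0.41, Thegl 0.40 and Tmem159, a protein of lipid droplets, 0.43. Ppil3, a cyclophilin of the spliceosome, had 108 CPM in young against 141 CPM in aged oocytes, a ratio of 0.39, which was 0.21 without the aged oocytes 41-48. Anapc10, a subunit of the ubiquitin ligase that drives exit from metaphase, had 0.36, and 0.18 without that run.

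Several genes of smaller ratio separated the single oocytes more evenly. Dazl, an RNA-binding protein that directs the translation of stored messages in germ cells, had 765 CPM at the lowest, 916 at the median and 1182 at the highest in young oocytes, and 845, 1158 and 1707 CPM in aged oocytes. Of the aged oocytes 34 of 37 lay above the young median and 16 above every young oocyte. The summed levels were 963 ± 119 and 1161 ± 205 CPM (SD, n = 30 and 37 oocytes), a ratio of 0.27 (0.26 to 0.28), against 0.33 in SN oocytes. Rab14, a GTPase of endosomes, had 413 ± 30.9 and 471 ± 41.8 CPM, a ratio of 0.19, with 18 aged oocytes above every young one. Mphosph6, a protein of the RNA exosome, had 0.20 with 14 aged oocytes above every young one, and Bora, an activator of the kinases that start division, had 0.23 with 6. Gm47877, named as an antisense RNA inside Chrnb4, had 23.1 and 32.3 CPM and 21 aged oocytes above every young one. Its feature also overlaps a feature on the other strand, so its reads may come from either strand.

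Mbd3l2, Eloc, Lsm3 and Eny2 were abundant genes with ratios of 0.27 to 0.29. Lsm3 belongs to the ring that binds U6 RNA and decaying messages, and its levels were 97.6 CPM in young against 119 CPM in aged NSN oocytes. In SN oocytes Lsm3 had 86.6 and 76 CPM, a ratio of -0.19. Eny2, shared by the SAGA and TREX-2 complexes, had 165 and 199 CPM. Eloc, the elongin C of ubiquitin ligases, had 632 and 772 CPM, with a ratio of 0.51 in suffix A oocytes and 0.09 in the unsuffixed. 1110059G10Rik, with a ratio of 0.35, had 0.69 and 0.02 in these 2 sets.

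The gene lists are described by counts beside the median of all features, -0.0033, and each list median lay inside the central 80 percent of features. Of all features, 48.8% were higher and 51.2% lower in aged oocytes. Of the 25 list medians, 14 had opposite signs in suffix A and unsuffixed oocytes and 7 changed sign with TMM factors. Of the 9 oocyte markers, 8 were lower in aged oocytes and the median was -0.14. Zp2, a protein of the zona pellucida, had 3090 and 2624 CPM, and Bmp15, a growth factor that the oocyte secretes, had 3812 and 3358 CPM. In SN oocytes these genes had ratios of 0.16 and -0.01. Of 31 maternal effect genes, 13 were higher and 18 lower with a median of -0.04. Gdf9, Padi6 and Nlrp5 had ratios of -0.09, -0.10 and -0.04, while Dppa3 and Tcl1 had 0.13 and 0.07.

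The medians of the chromosome and spindle lists lay between -0.05 and -0.0011, while single members lay farther out. Of 17 cohesin genes none passed 25%, 8 were higher and 9 lower, and Smc1b, the meiotic subunit, had 0.19, with 0.48 in suffix A oocytes and -0.05 in the unsuffixed. Of 27 spindle checkpoint and kinetochore genes, 12 were higher and 15 lower. Trip13, which remodels checkpoint proteins, had 0.30 and Cenpc1, of the inner kinetochore, had -0.23. Of 26 dynein, dynactin and kinesin genes, 12 were higher and 14 lower. Dync1h1, the dynein heavy chain, had -0.36 and was the only member past 25%. Numa1, which anchors dynein at the spindle poles, had -0.27. Dync1i1, a dynein intermediate chain, did not reach 10 CPM in either age, with 7.89 CPM in young against 4.63 CPM in aged oocytes. Of 27 genes of meiotic arrest and resumption none passed 25%, and the median was -0.0011.

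Of 14 calcium genes, 7 were higher and 7 lower, and 2 were lower past 25%, where 2.64% of all features were. Ppp3ca, the catalytic subunit of calcineurin, had 10.6 and 7.36 CPM, a ratio of -0.52 (-0.67 to -0.38), and 29 of 37 aged oocytes lay below the young median. Ppp3ca passed the 10 CPM filter by its young level only. Trpm7, a channel for divalent ions, had -0.37 in NSN oocytes and 0.24 in SN oocytes. Among 21 genes of mRNA storage and translation, Ddx6, a helicase of stored messages, had -0.34 and was the only member past 25%, while Dazl was highest. In SN oocytes Ddx6 had 0.45. Of 25 mRNA decay genes none passed 25%.

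The mitochondrial respiratory chain and the proteasome had the highest share of members above 0. Of 69 respiratory chain genes, 51 were higher and 18 lower, with a median of 0.04, where 48.8% of all features were higher and 51.2% lower. The median of this list was -0.0050 in suffix A oocytes. Ndufa12, an accessory subunit of complex I, was the only member past 25%, with 9.97 and 13.1 CPM and a ratio of 0.39. Ndufa12 passed the 10 CPM filter by its aged level only. Ndufc2 and Cox5a had 0.23 and 0.20 in NSN and -0.14 and -0.16 in SN oocytes. Of 40 proteasome genes, 26 were higher with a median of 0.05, and Psmc1, an ATPase of the base, had 0.22. The genes of mitochondrial dynamics and DNA went the other way, 8 higher and 18 lower, with a median of -0.03, which was 0.0013 with TMM factors. Mfn2, which fuses the outer membrane, had -0.29. Hspd1, the chaperonin of the mitochondrial matrix, had 75.4 and 63.7 CPM, a ratio of -0.24, and its 6 aged sets lay below its 6 young sets. The only call among the 20 autophagy and lysosome genes was Atg7, which starts the conjugation of autophagy proteins, at 15.6 and 20 CPM and a ratio of 0.35. Its aged sets, at 18.7 to 20.9 CPM, lay above its young sets, at 14 to 18 CPM.

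Stress and repair genes held few members past 25%, where 2.64% of all features were lower and 0.579% higher by this threshold. Of 22 antioxidant and thioredoxin genes, Keap1, which marks NRF2 for destruction, was lower past 25% with 15.5 and 12.4 CPM. Of 48 DNA repair genes, Atm, the kinase that signals breaks, was lower past 25% with 10.4 and 8.23 CPM, and 22 were higher and 26 lower. Atm passed the 10 CPM filter by its young level only. Of 29 chaperone and stress genes none passed 25%, with Hspa5, the chaperone of the endoplasmic reticulum, at -0.32. Of 72 ribosomal protein genes 41 were higher and 31 lower, and Rps23 alone was lower past 25%. Of 44 splicing and cyclophilin genes Ppil3 was higher and Srsf6, a splicing regulator, lower past 25%. Of 22 genes of the PI3K, FOXO3 and mTOR pathway, 6 were higher and 16 lower, none past 25%, where 51.2% of all features were lower. The median was -0.07, with -0.16 in suffix A oocytes and 0.02 in the unsuffixed.

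**Figure D3:**
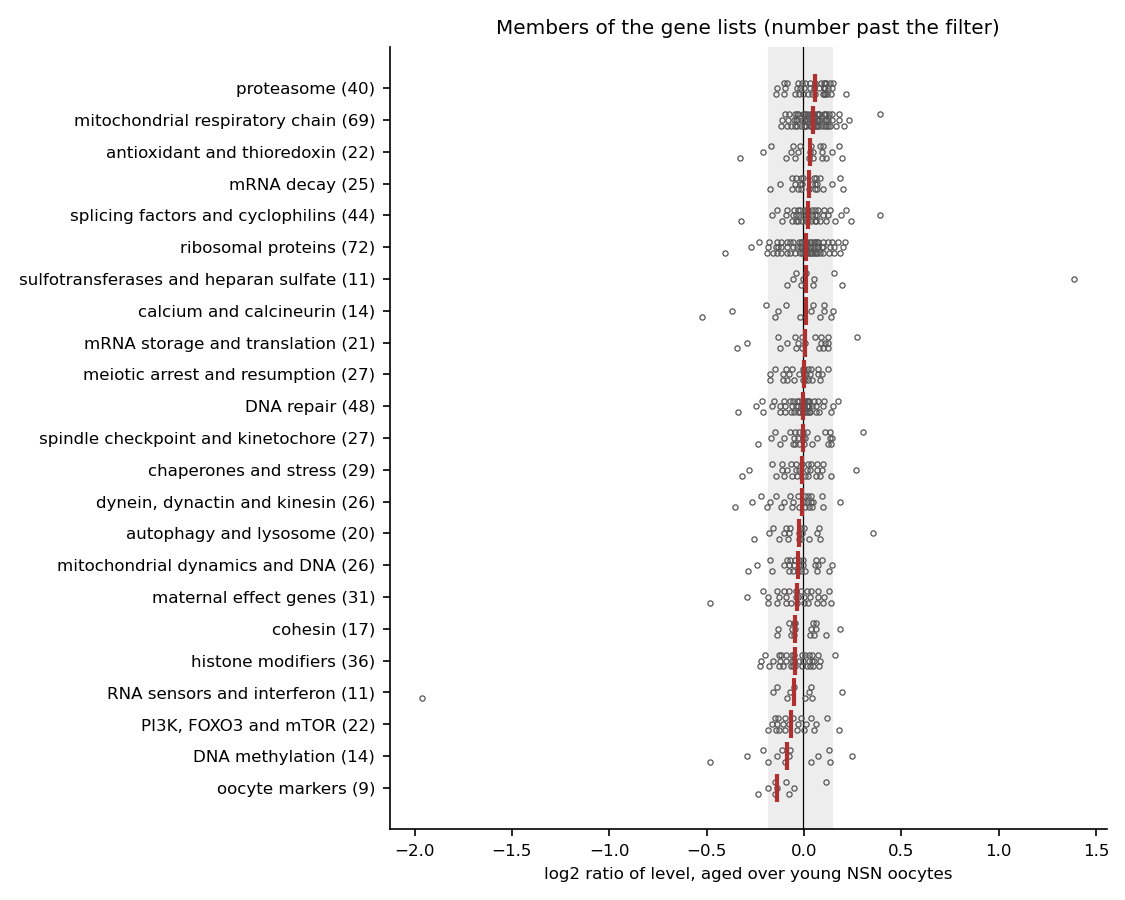
Log2 ratio of the level in aged over young NSN oocytes (horizontal axis) for each member past the filter (circles) of 23 gene lists (rows, number of members in brackets); red bars are the list medians, the line is the median of all features and the grey band their central 80 percent. All list medians lie inside the band, and Ddx60 at -1.96 and Ust at 1.39 stand far from their lists.

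Aged NSN oocytes differed more from one another than young NSN oocytes did. The aged oocytes came from 7 mice over a range of ages and the young from 3 mice of 1 age, so that spread between mice and between oocytes cannot be told apart. Spread was taken as the squared coefficient of variation over oocytes less the part due to counting, for 12091 features with 10 or more normalised counts on average. Its median was 0.0320 in young and 0.0465 in aged oocytes, and 73.6% of the features were more dispersed in the aged (70% with the spread taken inside runs). Over features, the log2 ratio of the spread had a median of 0.52, and of 0.55 with each oocyte thinned to 900000 counts. Taken inside each run of names, the median spread was 0.0309, 0.0235 and 0.0233 in the young runs and 0.0344, 0.0380 and 0.0373 in the aged runs, so that the runs did not overlap. The young run 1-7 lay closest to the aged runs. Without it the median ratio of the spread was 0.78, and without the aged oocytes 41-48 it was 0.37, with 64.6% of features more dispersed in the aged.

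The genes that differed most in spread included genes with close levels in the ages. Paics, an enzyme of purine synthesis, had 109.6 ± 7.29 CPM in the young and 105 ± 15.0 CPM in the aged (SD, n = 30 and 37 oocytes). Gdf9, the growth factor by which oocytes act on granulosa cells, ranged from 3395 to 5381 CPM in young oocytes and from 1679.7 to 5374 CPM in aged oocytes, and 9 aged oocytes lay below every young one. Its squared coefficient of variation was 0.0126 in young and 0.0731 in aged oocytes. Padi6, of the subcortical maternal complex, had 0.0183 and 0.0704, and the log2 ratio of the spread had a median of 0.95 over the 31 maternal effect genes. Sar1b, whose level was also lower in the aged, had 0.0168 and 0.160.

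Other genes were less dispersed in aged oocytes. Timm23, of the import channel of the inner mitochondrial membrane, had a squared coefficient of variation of 0.00511 in young oocytes and of close to 0 in the aged, with 51.3 ± 5.69 and 55.1 ± 5.34 CPM. Cdca2, a chromatin partner of protein phosphatase 1, had 74.3 ± 9.60 and 69.9 ± 7.48 CPM. Park7, a redox-sensitive protein, had 61.1 ± 8.59 and 62.1 ± 7.24 CPM. The log2 ratios of the spread of Cdca2, Park7, Mcoln1 and Dcakd were -2.24, -2.11, -1.86 and -1.59. Ust had a squared coefficient of variation of 0.915 in young against 0.330 in aged oocytes.

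**Figure D4:**
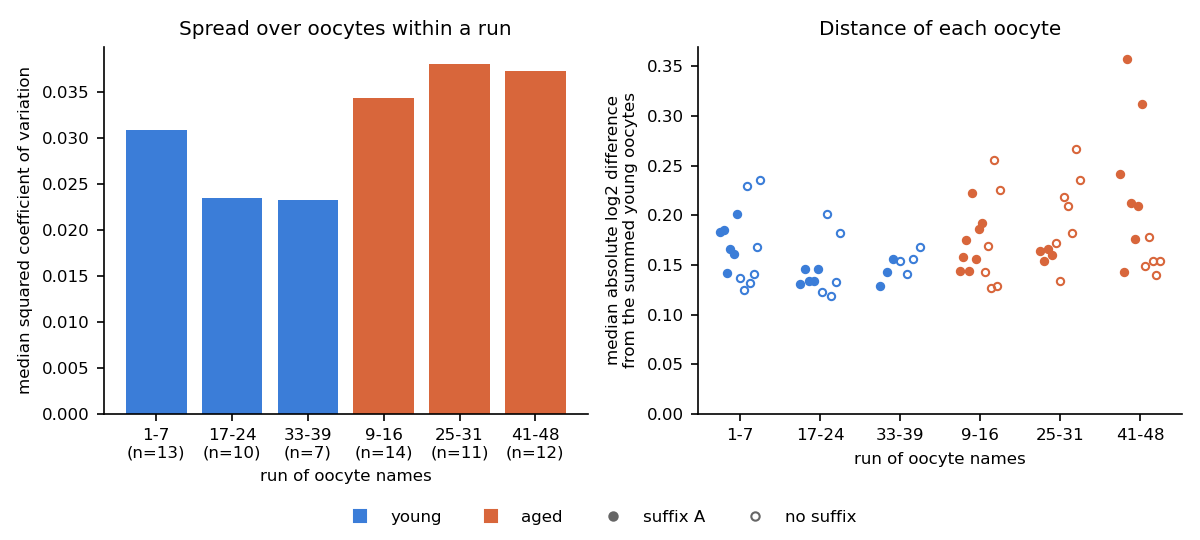
Left, median squared coefficient of variation over the oocytes of each run (bars, number of oocytes in brackets); right, for each NSN oocyte thinned to 900000 counts, the median absolute log2 difference from the sum of the young oocytes, without the oocyte itself, over 2434 features. The aged bars reach 0.0344 to 0.0380 and the young bars 0.0233 to 0.0309, and the 2 farthest points belong to the aged run 41-48.

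Oocyte by oocyte, the distance from the young profile overlapped between the ages. At 900000 counts per oocyte, the median absolute log2 difference from the summed young oocytes, leaving out the oocyte itself, was 0.119 to 0.236 in young oocytes with a median of 0.146, and 0.127 to 0.357 in aged oocytes with a median of 0.173. By run, the medians were 0.166, 0.134 and 0.154 in young and 0.163, 0.173 and 0.177 in aged oocytes, so that the run 1-7 lay above the aged run 9-16. The farthest oocytes were aged 42A and 41A, at 0.357 and 0.312. The number of detected features at that depth was 17135 ± 327 in young and 16636 ± 458 in aged oocytes (SD, n = 30 and 37 oocytes). Its medians by run were 17021, 17245 and 17180 in young and 16326, 16767 and 16898 in aged oocytes.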

How the data were processed

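Polyadenylated RNA of single GV oocytes was measured by Smart-seq2, beside methylation. After trimming and single-end alignment to GRCm38 by HiSat2, the authors counted primary alignments over 38540 features of an oocyte transcriptome, and deposited raw counts without normalisation. The program that counted and its strand setting are not given in the sources used here. Ages came from the labels and NSN calls from the study's supplementary table.

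Features were named after the same-strand gene of GENCODE M21, from the study's table where it gave one (1420 features) or by overlap of at least 50% of the feature and 20% of the gene (15731). In the study's table, 298 names belonged to a gene on the other strand and were not used. Counts were summed per age and scaled to CPM. The 95% intervals are exact (conditional binomial) and cover counting error only. Features past the filter had at least 10 CPM in an age and at least 3 counts in both. Spread used median of ratios size factors. Thinning drew 900000 counts per oocyte. The 2 most similar oocytes of an age still differed, with a chi-square per feature of 2.42, so none was counted as a repeat.

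Named genes are the 12 largest and 12 smallest ratios among protein-coding features whose 3 runs of each age do not overlap and whose medians agree in direction, the 6 and 6 among those of at least 100 CPM, the 4 and 4 among other features, the 5 and 5 that overlap least between single oocytes, the 5 and 5 of at least 50 CPM that differ most in spread, up to 3 members of each list, and genes the study names. A few others of these groups are left out for length. Members and the 25 lists were chosen with earlier results of these data known, so no list is independent support. Calculations were tested on simulated data and run with numpy 2.4.6, pandas 2.3.3 and scipy 1.17.1 under Python 3.11.15, with TMM factors from edgeR 4.0.16 under R 4.3.3. The alternatives covered scaling, depth, filters and the oocytes included. The comparison of 6 sets per age and the counts in both suffix sets were chosen after seeing the data.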

Additional observations from a re-analysis of the deposited data

How the results depend on the processing

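Counts of features past a fold depended on which oocytes and levels entered. Features at least 1.5-fold higher, 3 as reported, were 5 after thinning or with the unclassified aged oocyte, 6 and 7 without the young oocytes 1-7 and 17-24, 8 and 9 without the aged oocytes 9-16 and 25-31, 58 with the suffix A, 7 without it, 1 in both suffix sets, and 127 or 0 at a minimum of 1 or 50 CPM. Features at least 1.5-fold lower, 46 as reported, were 79 without the young oocytes 1-7, 104 without the aged oocytes 41-48, 113 without the suffix A, 22 in both suffix sets, and 502 or 6 at 1 or 50 CPM. Past 25%, 54 higher features became 100 after thinning, 98 with TMM factors, 103 without the young oocytes 17-24, 126, 136 and 93 without the aged oocytes 9-16, 25-31 and 41-48, 453 with the suffix A, 168 without it, 16 in both, and 611 or 10 at 1 or 50 CPM. The 246 lower ones became 441 without the aged oocytes 41-48, 464 and 523 with and without the suffix A, 108 in both, and 1603 or 48 at 1 or 50 CPM. Leaving out each oocyte in turn gave 2 to 6 and 44 to 50 at 1.5-fold, 51 to 71 and 227 to 272 past 25%, a spread ratio of 0.44 to 0.56, and 70.2% to 75.0% of features more dispersed in the aged.

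The median log2 ratio of the spread was 0.78 without the young oocytes 1-7 and 0.37 without the aged oocytes 41-48, where 64.6% of features were more dispersed. The difference in detected features, aged minus young, was -499 at 900000 counts and -1186 at full depth. Of the 131 named features, 1 that passed 25% changed sign, Gm48050, whose ratio of 0.66 became -0.00335 in oocytes without the suffix A, and 16 that did not pass 25% changed sign in 43 values. Of the other values of named features 621 moved outside their counting interval and 1471 did not. Of the 25 list medians, 14 had opposite signs in the suffix sets and 7 changed sign with TMM factors. The cause of these changes was not tested. No paired analysis was possible because the ages share no oocyte names and no test was run. Less depth in the aged oocytes limits genes of low level most, since 3 counts in the shallowest oocyte are about 3 CPM.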

Other observations

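Some genes outside the named groups separated all 6 aged sets from all 6 young sets. They were chosen after their values were seen. Tdrd12 and Piwil1, genes of the small RNA pathway that silences transposons, had 352 and 402 CPM and 40.9 and 47 CPM in young and aged NSN oocytes, with ratios of 0.19 and 0.20. Lclat1, which remodels cardiolipin, had 0.24. Eef1g, a subunit of the translation elongation factor, had -0.36, and Surf6 and Bop1, factors of ribosome assembly in the nucleolus, had -0.32 and -0.28. Dppa4 had 11.05 and 7.97 CPM, a ratio of -0.47.

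Of the 284 features on the X chromosome, 21 were lower past 25% in aged NSN oocytes (7.39%, against 2.64% of all features) and 6 higher (2.11% against 0.579%), and the median ratio was -0.0061. The median of each of the 20 chromosomes with features lay between -0.021 and 0.022.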
